A study of Rattus norvegicus with 3 samples.

Results

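Seh1 peaks were examined at the genes of 9 transcription factors of the oligodendrocyte lineage: Olig1, Olig2, Sox10, Sox8, Myrf, Nkx2-2, Nkx6-2, Zfp488 and Tcf7l2. Their peaks were the rows of the authors' annotated peak table whose nearest gene, by transcription start site (TSS), was one of these factors, 11 of the 9084 annotated peaks. Peaks were called in chromatin from 2 stages of rat oligodendrocyte culture, each with 1 library and no replicate. Immature oligodendrocytes (iOL) had been treated with triiodothyronine (T3) at 60 nM for 1 day after PDGF-AA, bFGF and NT3 were withdrawn, and oligodendrocyte progenitor cells (OPC) were kept in medium with PDGF-AA, CNTF, bFGF and NT3. Both were grown from forebrains of newborn Sprague Dawley rats (postnatal day 1 to 2), and no genotype other than the strain is given. An IgG library was made from iOL and none from OPC is labelled, so background in OPC was not measured. The peak lists hold no expression values, so the cell types could not be checked against marker genes. The iOL list held 6704 peaks and the OPC list 9117, on rat build rn6. The iOL list has positions only, so the annotation by gene below is that of OPC peaks. No read totals were at hand, so the sequencing depth is unknown, and with 1 library per stage no test between stages was possible.

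Seh1 is a scaffold protein of the nuclear pore complex, and the series title names it together with Olig2. Olig1 and Olig2 are neighbouring basic helix-loop-helix factors that bind E-box sequences, and Olig2 is needed to specify the lineage in mice. Sox10 and Sox8 are related HMG-box factors of the SoxE group, and Sox10 directly activates myelin genes. Nkx2-2 and Nkx6-2 are homeodomain factors, Myrf is a membrane-tethered factor that switches on the myelin programme, Zfp488 is a zinc finger protein known as a partner of Olig2 in mouse and chick, and Tcf7l2 is an HMG-box effector of Wnt signalling that is transiently high in newly formed oligodendrocytes.

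Seh1 peaks of OPC were found at 4 of the 9 factors: Nkx6-2, Myrf, Sox8 and Nkx2-2. Olig1, Olig2, Sox10, Zfp488 and Tcf7l2 were the nearest gene of no peak. Nkx6-2 was the factor with a peak closest to its TSS, 495 bp downstream in its own exon 1, and every other peak lay 6.91 kb or more from the TSS. No peak of a factor overlapped an iOL peak, where 1.73% of all annotated peaks did. Only 1 iOL peak lay between OPC peaks of the same factor, at Sox8. Of coding genes with 2 or more OPC peaks, 29.6% had an iOL peak between them, so both counts are near these shares. The share of factors with a peak was 44.4% (95% exact binomial interval 13.7 to 78.8%, counting error only), against 30.1% of 18539 coding genes with a curated RefSeq transcript, so the count of 4 is near this background. Of peaks within 50 kb of a TSS, the same 4 factors had at least 1 (22.1% of coding genes). With scores at or above the list's median 3 factors had a peak (18.8% of coding genes), and outside annotated repeats 4 did (22.7%).

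The sequence just upstream of 3 of the genes is shown, because they stand for the different outcomes: Nkx6-2 with a peak just past its TSS, Nkx2-2 with peaks only farther downstream, and Olig2, named in the series title, with none. These are the 250 bases before the TSS in RefSeq on build GRCr8, which is not the build of the peaks, and 5 of the 9 factors had a sequence in the RefSeq table used. They lie at chr1:203813123-203813372 (minus strand) for Nkx6-2, chr3:155075623-155075872 (minus strand) for Nkx2-2 and chr11:43961335-43961584 (plus strand) for Olig2. Capitals mark E-boxes, CANNTG, which reads the same on both strands.
Nkx6-2: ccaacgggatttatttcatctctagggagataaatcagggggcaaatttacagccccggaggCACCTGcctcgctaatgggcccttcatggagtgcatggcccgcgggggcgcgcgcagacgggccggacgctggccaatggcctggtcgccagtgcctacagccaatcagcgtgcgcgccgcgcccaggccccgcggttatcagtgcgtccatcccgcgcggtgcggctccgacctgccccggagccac
Nkx2-2: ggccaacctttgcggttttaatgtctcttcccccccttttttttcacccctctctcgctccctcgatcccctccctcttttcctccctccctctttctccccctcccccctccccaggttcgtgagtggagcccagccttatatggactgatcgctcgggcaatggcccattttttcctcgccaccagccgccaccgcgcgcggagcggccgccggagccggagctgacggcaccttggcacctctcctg
Olig2: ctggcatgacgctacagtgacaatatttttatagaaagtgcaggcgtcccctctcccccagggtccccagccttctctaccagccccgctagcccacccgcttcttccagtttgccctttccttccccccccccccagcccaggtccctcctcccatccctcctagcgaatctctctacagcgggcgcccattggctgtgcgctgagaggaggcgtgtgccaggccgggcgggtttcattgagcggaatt
The Nkx6-2 sequence held 1 E-box, CACCTG, starting at -188 from the TSS, and those of Nkx2-2 and Olig2 held none, as did those of Zfp488 and Tcf7l2. Of 33469 RefSeq promoters in the table, 65.5% held at least 1 E-box in the same 250 bases. On either strand, the motif AACAAT of Sox factors occurred once in the Tcf7l2 sequence and in 10.3% of all promoters. The motifs ATCAAAG of Tcf factors, TNAAGTG of Nkx2 factors and TAATTA of Nkx6 factors occurred in 3.15%, 9.89% and 4.86% of all promoters and in none of the 5. These letters describe the windows and say nothing about binding, since no peak of these 5 genes lies inside them. The edge of the Nkx6-2 peak nearest to the TSS is 393 bp downstream of it.

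Nkx6-2 (gene ID 309095, chromosome 1), a homeodomain factor linked to myelination, had 2 OPC peaks on both sides of its TSS. The peak in exon 1 of 3 (211923332 to 211923536) had a score of 8.3 and a focus ratio of 0.696. The score is the value the authors' peak caller gave, without a definition in the file, and the focus ratio is a fraction from 0 to 1 from the same caller. Across the OPC list scores ran from 5.11 to 197.3 in steps of 0.638, with a median of 7.66 and quartiles of 7.02 and 8.3, so a score of 8.3 is 13 steps and 1 step above the median. Of all annotated peaks, 72.4% scored lower. The peak was therefore within the middle range of the list and not among its strong peaks. Peaks in exon 1 of a transcript made up 1.75% of the annotated list, and 4.46% of coding genes had any OPC peak within 1000 bp of the TSS. The other Nkx6-2 peak (211960701 to 211960905) lay between genes, 36.9 kb upstream, and its score of 6.38, or 10 steps, was above that of 1.86% of peaks. In RefSeq gene order on GRCr8, 3 coding genes (Cfap46, Adgra1 and Kndc1) stand between Nkx6-2 and Utf1, the next gene with a peak on that side. None of the 3 has a curated RefSeq transcript, so the authors' annotation may not have held them. The class of this upstream peak and its tie to Nkx6-2 rest on that annotation. In iOL the nearest peak (211981447 to 211981655) lay farther out, 57.6 kb upstream of the TSS and 20.5 kb beyond this OPC peak.

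Myrf (gene ID 293736, chromosome 1), the regulator of the myelin programme, had 2 OPC peaks with the same score of 7.66, which is the median of the list. One lay in intron 2 of 26 (226280608 to 226280812), 11.8 kb downstream of the TSS, with a focus ratio of 0.7. The other (226299285 to 226299489) was upstream of the TSS, at -6.91 kb, with a focus ratio of 0.778. It lies in exon 20 of 20 of Dagla, the neighbouring gene that encodes a diacylglycerol lipase, so the exon label does not refer to Myrf. An iOL peak (226274971 to 226275179) lay 17.4 kb downstream of the Myrf TSS and 5.43 kb from the intron peak, outside the stretch between both OPC peaks. This was the closest approach of an iOL peak to any OPC peak of the 9 factors. The next OPC peaks along the chromosome belonged to Fads2 and Dagla.

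Sox8 (gene ID 302993, chromosome 10), a SoxE factor with functions that overlap those of Sox10, had 3 OPC peaks, all between genes and outside annotated repeats. The downstream peak (14912037 to 14912241) lay 25.2 kb from the TSS and had a score of 8.3 and the highest focus ratio of the 11 peaks, 0.929. Upstream, a peak at -37.7 kb (14974949 to 14975153) scored 7.02 and a peak at -63.3 kb (15000518 to 15000722) scored 6.38, each with a focus ratio of 0.75. The scores thus became lower with distance from the TSS over these 3 peaks, across 3 steps of the score. The iOL peak between them (14947738 to 14947946) lay 10.5 kb upstream of the TSS, closer than any of the OPC peaks. It was 27.0 kb from the nearest OPC peak, and no iOL peak overlapped a Sox8 peak of OPC. An iOL peak between OPC peaks is common: of 1928 coding genes with 2 or more OPC peaks 29.6% had at least 1, and of 1284 genes whose peaks spanned lengths within the factors' range, 30.3%. Sox8 being 1 of 4 such factors is near that share. On the upstream side the coding gene next to Sox8 in RefSeq gene order is Lmf1, which was nearest to no peak. Its curated RefSeq records are numbered above the highest in the authors' table. For Lmf1, the lack of a peak and the lack of an annotated TSS therefore cannot be told apart. The class of the upstream peaks and their tie to Sox8 rest on the authors' annotation.

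Nkx2-2 (gene ID 366214, chromosome 3), a homeodomain factor of differentiating oligodendrocytes, had 4 OPC peaks, the most among the 9, all downstream of its TSS and between genes. The nearest (141399108 to 141399312) lay 12.0 kb from the TSS with a score of 7.02 and outside annotated repeats. The other 3 stood far out, at 315 kb (141096475 to 141096679, score 7.02), 378 kb (141033140 to 141033344, score 7.02) and 411 kb (141000121 to 141000325, score 6.38). Each of these far peaks lay in a repeat: a LINE called RNHAL1, a GTGT simple repeat and a LINE called Lx4B. All 4 scores were below the list's median, and Nkx2-2 was without an iOL peak anywhere near, the closest lying 281 kb from any of its peaks. The class of the far peaks and their tie to Nkx2-2 rest on the annotation. In RefSeq gene order on GRCr8, 6 coding genes without peaks (Nkx2-4, Xrn2, Kiz, Ralgapa2, Insm1 and Cfap61) stand between Nkx2-2 and Naa20. Naa20 is the next gene with a peak on that side. Of these 6, 5 have no curated RefSeq accession or only one numbered above the highest in the authors' table, and Xrn2 is the exception.

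**Figure D1:**
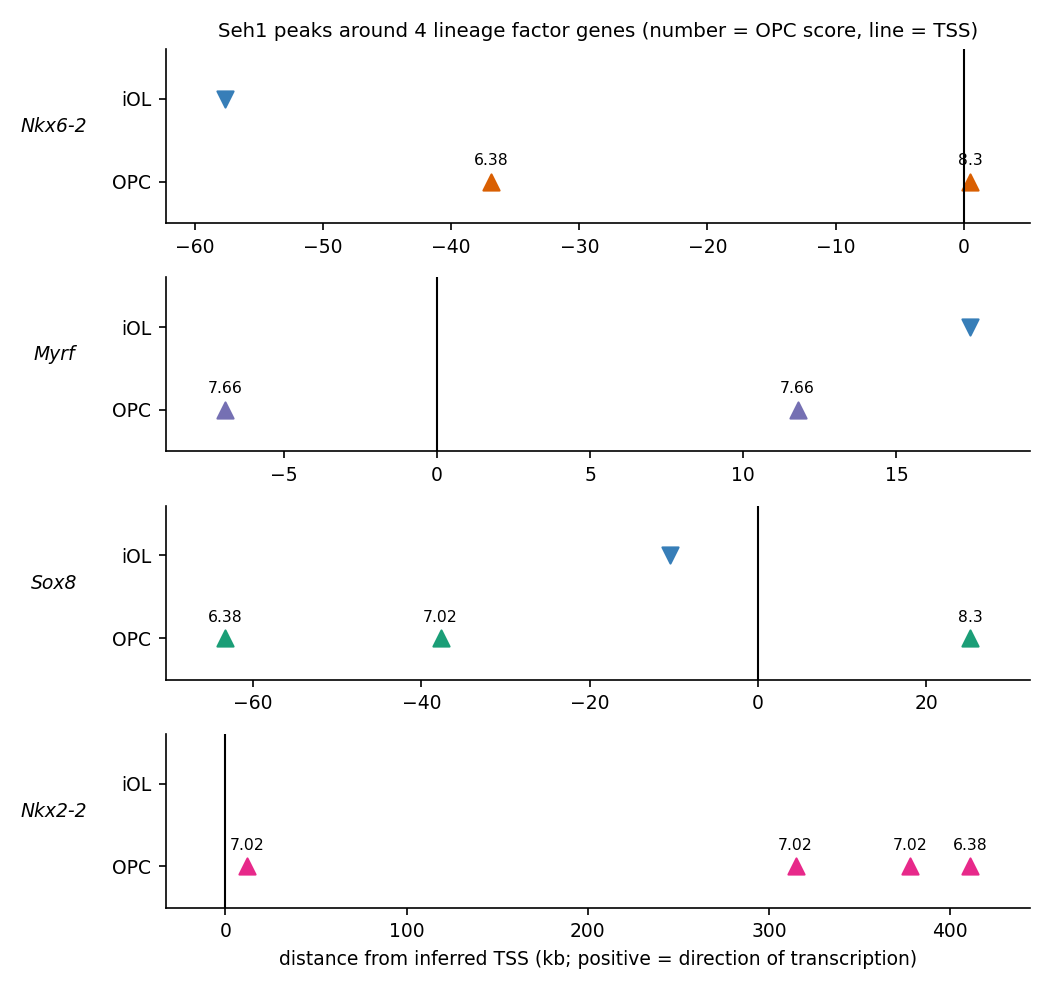
Position of Seh1 peaks around Nkx6-2, Myrf, Sox8 and Nkx2-2, in kb from the TSS inferred from the deposited distances, with positive values in the direction of transcription; iOL peaks are in the upper row and OPC peaks in the lower row of each panel, with the score of each OPC peak above it. iOL peaks within 100 kb of the outermost OPC peaks are drawn: 1 lies between the Sox8 peaks, 1 outside the peaks of Myrf and of Nkx6-2, and none at Nkx2-2.

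Over the 11 peaks the median score was 7.02, against 7.66 over all annotated peaks, a difference of 1 step. Of the 11, 9 scored at or below the list's median and 2 above it, the exon peak of Nkx6-2 and the downstream peak of Sox8. Of all annotated peaks, 72.4% were also at or below the median, with 2204 sharing that score. The median distance to the TSS was 36.9 kb for the factors' peaks and 34.8 kb for all peaks. The factors' peaks lay between genes in 8 cases, 72.7%, against 56.7% of all annotated peaks. This class rests on the authors' annotation, which may not have held some of the genes beside these peaks. Exons held 2 of the 11 (6.8% of all annotated peaks), introns 1 (29.4%) and promoters 0 (4.02%). In all, 3 of 11 were in annotated repeats, 27.3%, against 33.2%. There were 7 downstream and 4 upstream of the TSS, with 57.6% of all annotated peaks downstream. None overlapped an iOL peak, 0 of 11, which allows a share of up to 27.3%, while 1.73% of all annotated peaks did. The median gap to the nearest iOL peak was 52.6 kb for the factors' peaks and 88.3 kb for all peaks on placed chromosomes, and 1 of 11 had an iOL peak within 20 kb, against 17.5% of all. All 4 factors with a peak had 2 or more, compared with 34.6% of the 5586 coding genes that had any, and 4 or more were found at 5.41% of those genes. This counts peaks at any distance, and 7 of the 11 lay within 50 kb of the TSS. The tie of the far Nkx2-2 peaks and of the upstream Sox8 and Nkx6-2 peaks rests on the authors' annotation.

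**Figure D2:**
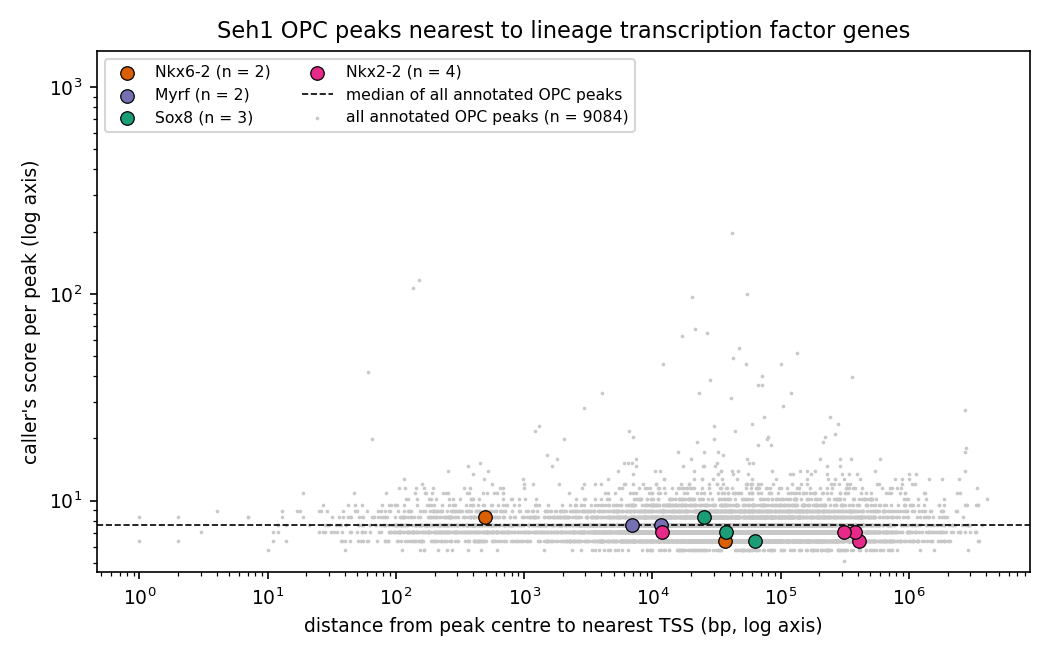
Caller's score of each OPC peak against the distance from its centre to the nearest TSS, both on log axes (1 peak at a distance of 0 is drawn at 1 bp), with the 11 peaks of Nkx6-2, Myrf, Sox8 and Nkx2-2 in colour, the 9084 annotated peaks in grey and their median of 7.66 as a dashed line. The coloured peaks lie between 6.38 and 8.3, inside the dense band of the list, and only the Nkx6-2 exon peak is within 1000 bp of a TSS.

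Olig2 (gene ID 304103) and Olig1 (gene ID 60394), which are next to each other on chromosome 11, lay in a long stretch without OPC peaks. The nearest genes with OPC peaks on either side in RefSeq gene order are Hunk, a protein kinase gene, and Ifnar1, a receptor subunit for type I interferon. The last Hunk peak (30677700 to 30677904, score 7.66) and the Ifnar1 peak (31627063 to 31627267, score 6.38) were 949 kb apart, with no OPC peak in between. A stretch at least this wide is not rare by length: 666 of 9057 gaps between neighbouring OPC peaks were wider (7.35%), and these held 42.0% of all sequence between peaks. The iOL list had 4 peaks in the same stretch, starting 243, 342, 418 and 838 kb after the Hunk peak (30920577 to 30920785, 31019692 to 31019900, 31095598 to 31095806 and 31515764 to 31515972). These are 4 of 6704 iOL peaks, and iOL peaks in other stretches of this length were not counted. Across the genome the lists seldom coincide, with 1.73% of all annotated OPC peaks overlapping an iOL peak. A difference between stages at the Olig genes was not tested. RefSeq order puts 12 coding genes without an OPC peak between Hunk and Ifnar1, the Olig pair included, with Synj1, Urb1, Paxbp1 and Ifnar2 among the others. Of these, 3 (Paxbp1, Ifnar2 and Eva1c) have no curated RefSeq accession or only one numbered above the highest in the authors' table. For these 3, the lack of a peak and the lack of an annotated TSS cannot be told apart. The position of Olig1 and Olig2 on rn6 was not available, so the distance of these iOL peaks from either gene was not measured.

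Sox10 (gene ID 29361, chromosome 7), the SoxE factor that activates myelin genes, lay between a peak in an intron of Gcat (120266416 to 120266620, score 8.3) and a peak 25.3 kb upstream of Pick1, the gene of a synaptic scaffold protein (120440089 to 120440293, score 7.02). Pick1 is the coding gene next to Sox10 in gene order. Because the table assigns each peak to the nearest TSS, an annotated Sox10 TSS would have to be at least 25.3 kb away from this peak as well. The stretch of 173 kb between both peaks held no peak in either iOL or OPC, and 41.9% of gaps were wider, with a median gap of 131 kb.

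Zfp488 (gene ID 290571, chromosome 16) has Rbp3 as its neighbour with a peak on one side (10318024 to 10318228, score 6.38, 40.4 kb downstream of the Rbp3 TSS) and Syt15 on the other (10554031 to 10554235, score 7.02, in the promoter). These peaks were 236 kb apart, with 33.6% of gaps wider, and 2 iOL peaks lay between them, 71.5 and 90.7 kb past the Rbp3 peak (10389750 to 10389958 and 10408958 to 10409166). Whether Zfp488 lies on the inner or outer side of the Rbp3 peak on rn6 is not known. Tcf7l2 (gene ID 679869, chromosome 1) has no other coding gene between it and the neighbours with peaks, Vti1a (276454270 to 276454474, in an intron, score 7.02) and Habp2 (276907519 to 276907723, 161 kb upstream of its TSS, score 7.66). That stretch measured 453 kb, with 18.3% of gaps wider, and held 2 iOL peaks, 8.87 and 310 kb past the Vti1a peak (276463349 to 276463557 and 276764111 to 276764319). For both stretches, iOL peaks in other stretches of like length were not counted, and a difference between stages was not tested.

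A gene can be nearest to a peak only if the authors' annotation had a TSS for it. All nearest transcripts in the table are curated RefSeq records, 8842 coding and 242 non-coding. Zfp488 and Tcf7l2 carry current accessions numbered above the highest in the table, and among 2549 coding genes of that kind 11.0% had a peak, against 33.2% of the 15990 others. For these factors, the lack of a peak and the lack of an annotated TSS cannot be told apart. Olig1, Olig2 and Sox10 carry older accession numbers, within the table's range.

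**Figure D3:**
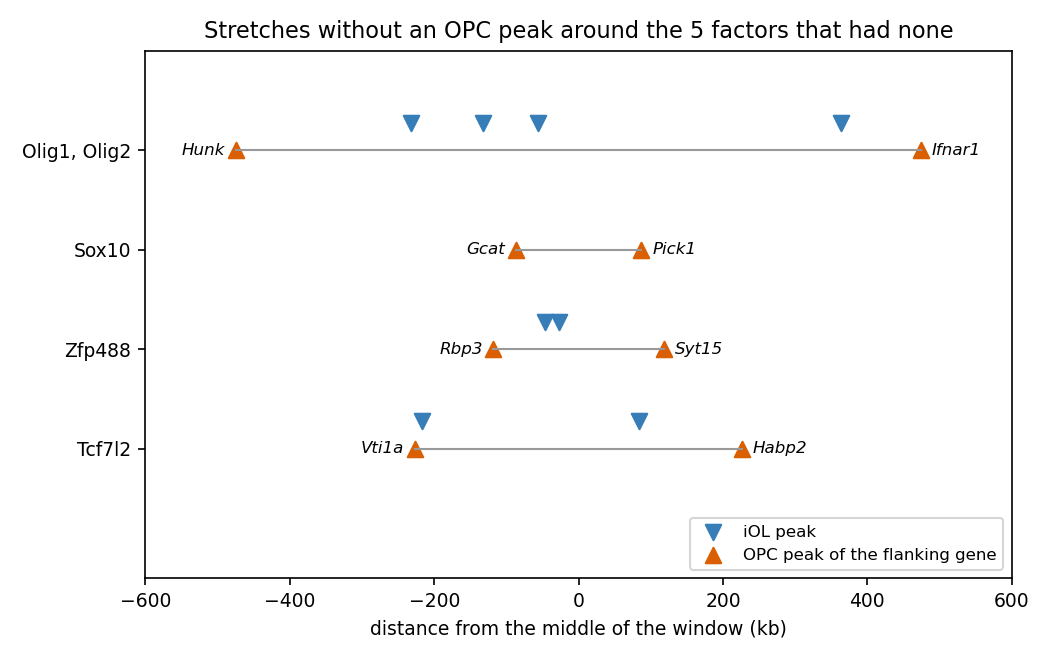
Stretches without an OPC peak at Olig1 and Olig2, Sox10, Zfp488 and Tcf7l2, drawn to scale in kb from the middle of each stretch; blue triangles are iOL peaks and orange triangles are the OPC peaks of the named flanking genes. The stretch at Olig1 and Olig2 is 949 kb wide with 4 iOL peaks, that at Sox10 173 kb with none, and those at Zfp488 and Tcf7l2 236 and 453 kb with 2 each. Whether Zfp488 itself lies inside its stretch on rn6 is not known. iOL peaks in other stretches of like length were not counted.

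The relatives of the 9 factors are described by family, without a test between families of so few genes. In the Nkx6 family 3 of 3 genes had an OPC peak within 1000 bp of the TSS, against 4.46% of coding genes: Nkx6-2 at 495 bp, Nkx6-1 at 125 bp in the 5' UTR (chromosome 14, 9555287 to 9555491, score 8.94) and Nkx6-3 at -366 bp in the promoter (chromosome 16, 73670746 to 73670950, score 7.66). This grouping was noticed after the values were seen. In the Nkx2 family 4 of 7 genes had a peak, where 30.1% of coding genes did, and apart from Nkx2-2 their nearest peaks lay closer, at -1.21 kb for Nkx2-8 (score 9.58), -1.51 kb for Nkx2-1 (score 7.02) and 4.09 kb for Nkx2-3 (score 7.66), each in a CpG island. Nkx2-4, Nkx2-5 and Nkx2-6 were nearest to none. Nkx2-4 has no curated RefSeq transcript, so for it the lack of a peak and of an annotated TSS cannot be told apart. It is counted among the 7 and among the relatives below, but not among all coding genes. Among the SoxE genes Sox9, which acts earlier in glial development, had 4 peaks and Sox8 3, while Sox10 had none. All 4 Sox9 peaks were downstream, from an exon peak at 2.67 kb (score 7.02) to one at 84.9 kb (score 9.58).

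Of the 3 Olig relatives, 2 were nearest to a peak and Bhlhe22 to none. Olig3, which patterns dorsal progenitors, had 2 peaks at 35.5 and -267 kb and 1 iOL peak between them, and Bhlhe23 had 1 peak at -61.1 kb. In the Tcf and Lef family Lef1 had 3 peaks, the nearest at -5.42 kb in a GCCGC simple repeat, and Tcf7l1 had 2, while Tcf7 and Tcf7l2 had none. The Tcf7l1 intron peak at 60.2 kb (chromosome 4, 100599869 to 100600073) had a score of 23.6 and overlapped an iOL peak by 178 bp, and it lies in a copy of 7SL RNA. It was named after its value was seen, and it is the only peak among the factors and their relatives shared with iOL. Of all annotated peaks, 1.73% were shared in this way. Myrfl and Prdm8 were nearest to no peak. In all, 10 of 17 relatives had a peak, 58.8% (95% exact binomial interval 32.9 to 81.6%), against 30.1% of coding genes. Of the 17, 7 had one within 10 kb of a TSS, 41.2% (18.4 to 67.1%), compared with 2 of 9 factors and 11.1% of coding genes. The relatives were listed with earlier results of these data known, so the intervals do not test these differences.

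Of 44 other regulators of the lineage, 28 had an OPC peak, 63.6% (95% exact binomial interval 47.8 to 77.6%), against 30.1% of coding genes. The list was chosen with earlier results of these data known, so the interval does not test this difference. Within 50 kb, 17 of 44 had a peak, 38.6%, against 22.1%. Within 10 kb, 7 of 44 had one, 15.9%, against 11.1%. Among those 7 were Id4, an inhibitor of differentiation (-82 bp), the T3 receptor gene Thrb (-87 bp), Nkx6-1, Prrx1 (-2.08 kb), Sox9 and Prox1 (-2.96 kb). Prox1, a homeodomain factor, had the highest score among the nearest peaks of these genes, 10.2, while those at Id4 and Thrb scored 6.38. Prox1 also had an OPC peak 0.371 kb from an iOL peak without overlap. Brd7, named in the series title with Olig2, had 1 peak at -42.0 kb, and Sox2, Hes5, Yy1, Zeb2, Myt1 and Nfib were among the 16 regulators with none. None of the 52 OPC peaks of this list overlapped an iOL peak, which is near the share of 1.73% over all annotated peaks. The 3 genes Sox9, Nkx6-1 and Bhlhe22 are in both the list of relatives and the list of regulators.

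By distance of the nearest peak, the regulator most like Nkx6-2 was Nkx6-1 (125 bp against 495 bp), the one most like Nkx2-2 was Klf13 (14.3 kb against 12.0 kb) and the one most like Sox8 was Rara (25.1 kb against 25.2 kb), among 28 regulators with a peak. Rara and Klf13 had 1 peak each, so the likeness covers only the nearest peak.

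**Figure D4:**
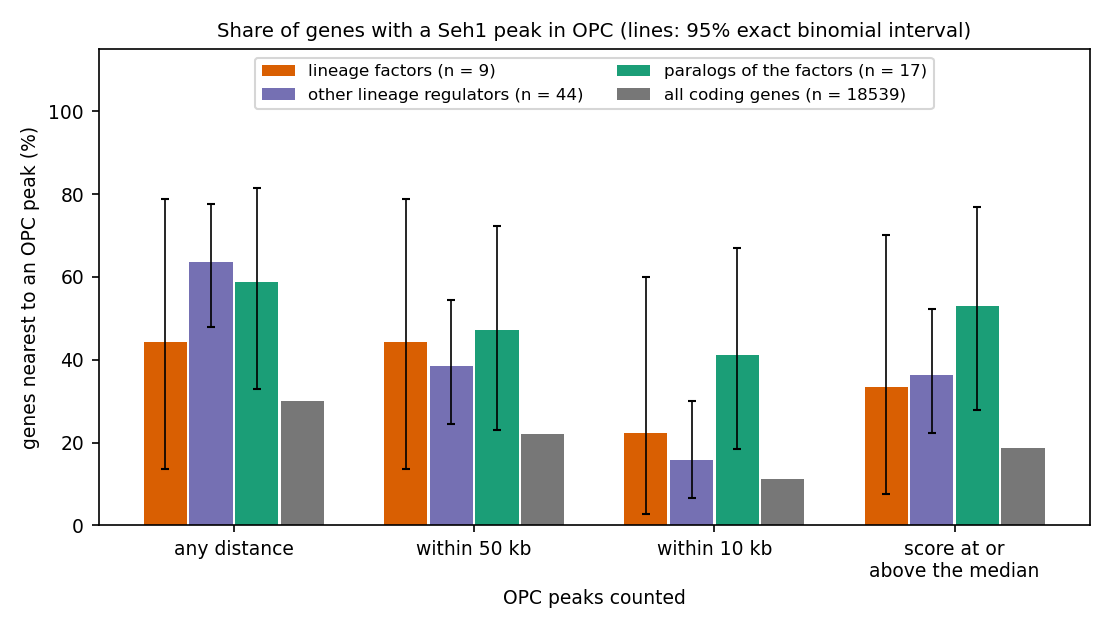
Percent of genes nearest to at least 1 OPC peak, for the 9 lineage factors, 44 other lineage regulators, 17 paralogs of the factors and all 18539 coding genes, counting peaks at any distance, within 50 kb, within 10 kb, or with a score at or above the median; lines are 95% exact binomial intervals. The factors stand at 44.4%, 44.4%, 22.2% and 33.3% in these 4 settings, with wide intervals that include the share of all coding genes each time.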

How the data were processed

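Seh1 chromatin immunoprecipitation and sequencing was done on 1 iOL and 1 OPC library. The submitters' processing notes name Bowtie2, HOMER, rn6 and hg18, with no role or version, and no caller settings were found. The authors deposited 2 peak lists of positions and an annotated table recorded under iOL. Per the file headers, HOMER's annotatePeaks.pl wrote it on rn6, and the input name pairs OPC Seh1 with iOL IgG. Its 9084 intervals all match OPC intervals and 0 match iOL ones, so it was used as the OPC annotation; 33 OPC peaks have none. The deposited score per peak and focus ratio, a fraction, are the authors' own.

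Genes were matched by gene ID. An iOL peak counted as between when it lay wholly between the outermost OPC peaks of a gene; overlap meant at least 1 bp. Strand and TSS were inferred from peak positions and distances. Gene order, names and promoter sequences are RefSeq GRCr8 and no GRCr8 position was used for a peak. Shares have 95% exact binomial (Clopper-Pearson) intervals, and a count of 0 allows 3 counts; both cover counting error only. No test was made. Counting of peaks between and the inferred TSS were checked on simulated data. Python 3.11.15, pandas 2.3.3 and scipy 1.17.1 were used. The factors and lists were chosen with earlier results of these data known. Text names every factor and peak, genes flanking them in gene order, listed regulators and relatives with a peak within 10 kb, and the regulator closest in nearest distance; other listed genes were named after their values were seen. Of 18 relatives listed, 2 names are the same gene. Results for 1 listed regulator are not reported here by name; it is included in the counts of its list.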

Additional observations from a re-analysis of the deposited data

How the results depend on the processing

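Counting peaks within 50 kb of the TSS left 4 factors and 7 of their 11 peaks, and 17 of 44 other regulators (38.6%, against 22.1% of coding genes). Within 10 kb, 2 factors remained, Nkx6-2 and Myrf. With scores at or above the median, 3 factors, 4 of their peaks and 16 regulators (36.4%, against 18.8% of coding genes) were counted. This rule left out 48.1% of all annotated peaks. Without annotated repeats, 4 factors and 8 peaks were counted. The nearest peak of each factor had a median score of 7.98, against 7.02 over the 11. Both other rules for an iOL peak between OPC peaks gave 1, and requiring overlap over at least 50% of the OPC peak gave 0. No paired analysis was possible because each stage has 1 library. The unknown read depth, the missing OPC background and the lack of an rn6 annotation limit every count.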
